A study of Mus musculus with 12 samples.

Results

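The 9 genes described here mark the B lineage in mouse lung: Ms4a1, Cd79a, Cd79b, Cd22, Pax5, Blk and Fcer2a for B cells, and Jchain and Mzb1 for plasma cells. They were chosen by name, through every non-control probe that carried the gene name or, for older names, its accession. This gave 13 probes of 41174, all of them among the 30189 that passed the filter on dim probes, and 9 of the 19823 genes tested. Jchain stands in the files under its older name Igj and Mzb1 as 2010001M09Rik.

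Whole-lung RNA of 12 C57Bl/6 mice was read on single-colour (Cy3) Agilent arrays, 1 mouse per array and 4 per group. Wild-type (WT) mice made up a group in room air and a group under cigarette smoke, and Rora mutants under cigarette smoke made up the third. The labels give every mouse as male with an age of 12 weeks, and give a smoke protocol of 4 months on 5 days a week, which is longer than 12 weeks. The labels do not state the Rora allele. Mutants without smoke were not analysed here, so the effect of genotype cannot be told apart from its interaction with smoke. Each level is log2 processed signal over the 75th percentile of its array. Passing means an adjusted p under 0.05 in limma, by the Benjamini-Hochberg method over all 19823 genes.

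B cells carry an antigen receptor made of membrane immunoglobulin and the signalling pair CD79A and CD79B. The transcription factor PAX5 keeps B cell identity together with EBF1 and E2A, and it is shut down when a B cell becomes an antibody-secreting plasma cell. Plasma cells load immunoglobulin in the endoplasmic reticulum, join its polymers with the J chain and send them through the epithelial transporter PIGR to mucosal surfaces. In the lung, B cells circulate, lie in small aggregates and can form follicles during long inflammation.

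Promoter windows of 250 bases before the RefSeq start (build GRCm38.p6) were read for 5 of the 9 genes. Those of Cd79a, Cd22 and Jchain are shown because the first pair belongs to the B cell genes and the last to the plasma cell genes, whose levels varied in different patterns across the arrays. The windows are Cd79a at chr7:24897247-24897496 on the plus strand, Cd22 at chr7:30879029-30879278 on the minus strand, and Jchain at chr5:88527898-88528147 on the minus strand. They are printed 5′ to 3′ on the strand of the gene, with matches to the motifs below in capitals.
Cd79a: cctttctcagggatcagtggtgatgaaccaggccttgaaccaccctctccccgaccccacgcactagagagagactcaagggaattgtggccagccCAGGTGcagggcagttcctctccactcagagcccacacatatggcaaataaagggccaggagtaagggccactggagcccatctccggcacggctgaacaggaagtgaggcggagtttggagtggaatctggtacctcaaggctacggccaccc
Cd22: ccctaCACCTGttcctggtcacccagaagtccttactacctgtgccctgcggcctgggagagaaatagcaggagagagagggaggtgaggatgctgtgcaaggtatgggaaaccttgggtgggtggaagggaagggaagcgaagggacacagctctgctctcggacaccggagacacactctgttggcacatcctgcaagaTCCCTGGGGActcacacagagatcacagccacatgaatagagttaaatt
Jchain: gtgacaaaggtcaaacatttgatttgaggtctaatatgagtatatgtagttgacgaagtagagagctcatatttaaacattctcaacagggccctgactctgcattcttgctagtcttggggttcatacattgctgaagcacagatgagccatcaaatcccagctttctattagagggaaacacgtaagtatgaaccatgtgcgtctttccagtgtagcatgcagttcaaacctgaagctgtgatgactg
Both strands were searched for the octamer ATGCAAAT, the E2A motif CAGGTG and the palindromic EBF1 motif. The Cd79a window held 1 E2A motif, 154 to 149 bases before the start. The Cd22 window held 1 EBF1 motif, 49 to 40 bases before the start, and 1 E2A motif, 245 to 240 bases before it. Of all 32851 windows in the table, 0.78% held the EBF1 motif, 17.2% the E2A motif and 1.6% the octamer. The Jchain and Pax5 windows held none of the 3 motifs, and of the 3 windows of Fcer2a 1 held 2 E2A motifs. A match of letters is a description and no evidence of binding.

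Before the comparisons, the arrays were checked against their labels. Rora RNA had a level of 1.10 ± 0.04 (SD, n = 4) in room air, 1.18 ± 0.04 in smoke-exposed WT and -1.01 ± 0.10 in the mutants, as the genotype labels give it. Sex-linked RNA did not follow the label male: the room-air arrays read Xist between 3.97 and 4.13 and none of the 3 Y-linked genes Kdm5d, Ddx3y and Uty well above background, while every smoke array was below 0 for Xist and had all 3. Both comparisons with room air therefore also contrast these sex-linked signals, and smoke and sex cannot be told apart there. The 2 smoke groups were alike in this. Between 70.1% and 74.8% of spots per array were well above background.

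Ms4a1 encodes CD20, a membrane protein of mature B cells (probe at chr19:11317922-11317981, minus strand, build mm8). Its levels were 1.27, 1.12, 1.26 and 1.28 in WT room air replicates 1 to 4, 1.41, 1.49, 0.90 and 1.48 in WT smoke, and 0.78, 0.86, 1.51 and 0.03 in the Rora mutants. The room-air arrays lay close together, and the mutant group held both the highest and the lowest of the 12. The mean was 1.23 ± 0.08 (SD, n = 4), 1.32 ± 0.28 and 0.79 ± 0.61. The mutants were 0.52 log2 units below WT smoke (95% interval -1.06 to 0.01, limma adjusted p = 0.248), which did not pass. The other Ms4a1 probe (chr19:11318382-11318441) gave a difference of -0.39.

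Cd79b, the beta chain of the receptor's signalling pair, had the same arrays at its extremes among the smoke groups (chr11:106127556-106127615, minus strand). It read 2.24, 2.00, 2.07 and 2.02 in room air, 2.45, 2.57, 2.03 and 2.56 in WT smoke, and 1.87, 1.93, 2.71 and 1.51 in the mutants. WT smoke replicate 3 lay within the room-air range, and mutant replicate 3 was the highest of all 12. The mutants were 0.40 log2 units below WT smoke (95% interval -0.86 to 0.06, limma adjusted p = 0.308). Its partner Cd79a (chr7:24608094-24608351, plus strand) was a dim probe, yet well above background on all 12 arrays. It read -4.48, -4.68, -4.79 and -4.51 in room air, -4.31, -4.50, -4.87 and -4.32 in WT smoke, and -4.90, -4.77, -4.32 and -5.22 in the mutants. The same 3 arrays were again at the extremes of their own groups: WT smoke replicate 3 and mutant replicate 4 low, mutant replicate 3 high. Over all 12 arrays mutant replicate 3 was level with WT smoke replicates 1 and 4.

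Cd22, an inhibitory co-receptor of the B cell receptor (chr7:30575331-30575390, minus strand), showed the tightest room-air group of the 9 genes. Its room-air levels were -1.16, -1.17, -1.05 and -1.12, against -0.66, -0.60, -1.08 and -0.81 in WT smoke and -1.13, -1.13, -0.55 and -1.35 in the mutants. Of the WT smoke arrays, 3 lay above every room-air array and replicate 3 lay among them. The change with smoke was 0.34 log2 units, 1.26-fold (95% interval 1.00 to 1.59 on the fold scale, limma adjusted p = 0.266), and did not pass. The other Cd22 probe (chr7:30584884-30586208) was well above background on 7 of 12 arrays and gave 0.36.

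Pax5, the B cell identity factor, had the largest B cell difference between smoke and room air (chr4:44546164-44546223, minus strand). It read -2.71, -2.88, -2.81 and -3.41 in room air, -2.33, -2.22, -2.75 and -2.29 in WT smoke, and -2.84, -2.69, -2.40 and -3.16 in the mutants. The groups overlapped only through WT smoke replicate 3 and room-air replicate 1, and room-air replicate 4 lay below the rest of its group. Smoke-exposed WT stood 0.56 log2 units above room air (95% interval 0.15 to 0.97), 1.47-fold, with an unadjusted p of 0.0122 and a limma adjusted p of 0.126. The other Pax5 probe, well above background on 4 of 12 arrays, gave 0.06, so the 2 probes disagreed in size.

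Blk, a Src-family kinase of B cells (chr14:62332606-62333743, minus strand), was another dim probe that stood well above background on all 12 arrays. Its levels were -4.54, -4.85, -4.73 and -4.66 in room air, -4.85, -4.20, -4.90 and -4.35 in WT smoke, and -4.56, -4.47, -4.22 and -4.75 in the mutants. All 3 groups overlapped, and the WT smoke arrays fell into a high and a low pair. Fcer2a encodes CD23, the low-affinity IgE receptor of mature B cells (chr8:3682021-3682080, minus strand). It read -2.51, -2.63, -2.71 and -2.70 in room air, -2.07, -1.95, -2.76 and -2.58 in WT smoke, and -2.75, -2.42, -2.07 and -3.14 in the mutants. The spread of the smoke groups (SD 0.39 and 0.46) was larger than that of room air (0.09).

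Jchain encodes the joining chain of polymeric IgA and IgM (chr5:89595455-89595514, minus strand). Its levels were 0.67, -0.20, 2.21 and 0.66 in room air, 0.01, 0.16, 0.03 and -0.19 in WT smoke, and 0.60, -0.11, 1.03 and -0.48 in the mutants. Room-air replicate 3 was the highest of the 12, and WT smoke was the tightest group. The mean was 0.83 ± 1.01 (SD, n = 4) in room air and 0.00 ± 0.14 in WT smoke, a difference of -0.83 (95% interval -1.80 to 0.14, limma adjusted p = 0.359). Without room-air replicate 3 the difference was -0.37. The other Jchain probe (chr5:89595625-89595684) gave -0.74 with all arrays.

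Mzb1, an endoplasmic reticulum protein of marginal zone B cells and plasma cells that helps immunoglobulin assembly, read -0.86, -1.22, -0.18 and -0.90 in room air. WT smoke read -1.30, -1.14, -1.43 and -1.10, and the mutants -1.48, -1.65, -0.94 and -1.95. As for Jchain, room-air replicate 3 was the highest array and mutant replicate 3 the highest mutant. The mutants were 0.71 log2 units below room air, 0.610-fold (95% interval 0.430 to 0.866), with a limma adjusted p of 0.0558, just outside the threshold. Every mutant array lay below the room-air mean, and the groups overlapped. Without room-air replicate 3 the adjusted p was 0.123, and without mutant replicate 3 it was 0.0168 (difference -0.90). It was 0.0376 without room-air replicate 2 (difference -0.86), so leaving out either of these 2 arrays brought Mzb1 past the threshold in limma.

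**Figure D1:**
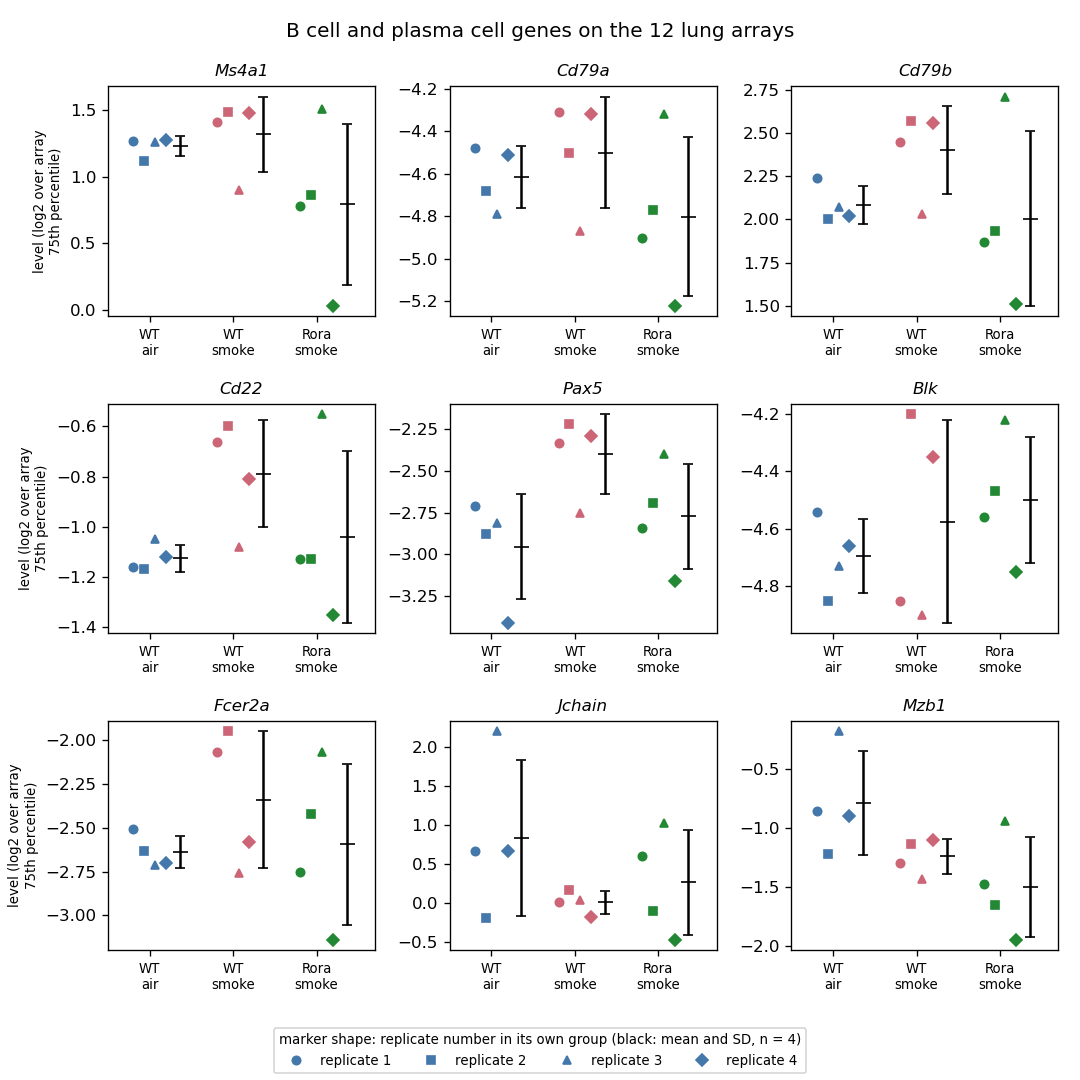
Levels of the 9 genes on the 12 arrays, as log2 over the 75th percentile of the array, by group; marker shape gives the replicate number, and black bars give mean and SD (n = 4). WT smoke replicate 3 and mutant replicate 4 are the lowest of their groups for all 7 B cell genes, mutant replicate 3 is the highest of its group for all 7, and room-air replicate 3 is the highest array for Jchain (2.21) and Mzb1 (-0.18).

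The comparison of WT smoke with room air asked which B lineage RNA went with smoke. Of the 9 genes 0 passed, against 4.86% of all genes, and 0 had groups that did not overlap, against 12.9% of all genes. At an unadjusted p under 0.05 there were 2, Pax5 and Cd22, against 18.3% of all genes. All 7 B cell genes had a change above 0, from 0.09 (Ms4a1) to 0.56 (Pax5), with a median of 0.29, while the median of all genes was -0.01. With normexp background correction, another way to remove spot background, 5 of the 7 were above 0 and the median was 0.13. Without WT smoke replicate 2 the median was 0.16 with 6 of 7 above 0, and without WT smoke replicate 3 it was 0.43. Both plasma cell genes had a change below 0, Jchain -0.83 and Mzb1 -0.45. In a whole-lung sample, fewer cells of a type and less RNA per cell cannot be told apart.

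Rora mutants were compared with WT, both in smoke, to ask which B lineage RNA went with genotype. Again 0 of 9 genes passed, against 6.04% of all genes, and 0 were without overlap, against 13.4%. The unadjusted p was under 0.05 for 0 of 9, against 21.2% of all genes. The median over the 7 B cell genes was -0.30, with Ms4a1 lowest at -0.52 and Blk alone above 0 at 0.07. With normexp the direction turned: 4 of the 7 were above 0 with a median of 0.12, where the median of all genes had moved to 0.10. Jchain stood at 0.26 and Mzb1 at -0.26, with intervals of -0.71 to 1.23 and -0.77 to 0.24. Without mutant replicate 3 the B cell median was -0.46 and 1 gene passed, Cd79b at -0.64 (limma adjusted p = 0.0325). Without mutant replicate 4 that median was -0.16 and none passed.

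Against room air, the smoke-exposed mutants likewise gave 0 of 9 genes that passed, against 16.7% of all genes, and 0 without overlap, against 21.0%. Only Mzb1 had an unadjusted p under 0.05 (0.00976), against 30.8% of all genes. The 7 B cell genes divided into 4 above and 3 below 0, with a median of 0.04. With normexp 5 were above 0 and the median was 0.18. The median was below 0 without mutant replicate 3 (-0.13, 2 above 0), without mutant replicate 2 (-0.016) and with the mean of all probes of a gene (-0.078). Ms4a1 stood at -0.44, and at -0.68 without mutant replicate 3, where it passed (limma adjusted p = 0.0429). Jchain stood at -0.57 (95% interval -1.55 to 0.40). The 3 comparisons share groups, so their values are not independent of each other.

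**Figure D2:**
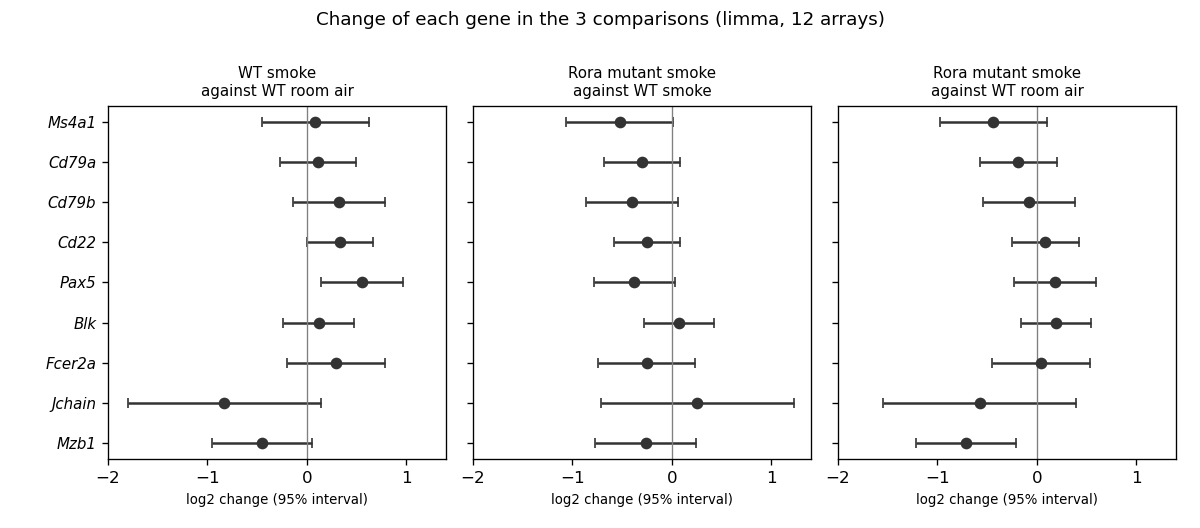
Change of each gene in the 3 comparisons, as log2 difference with its 95% interval from limma on 12 arrays. The 7 B cell genes lie above 0 in WT smoke against room air (0.09 to 0.56, and 5 of 7 with normexp), and 6 of them lie below 0 in the mutants against WT smoke (3 of 7 with normexp). Intervals that do not reach 0 are those of Pax5 (0.15 to 0.97) and Cd22 (0.0041 to 0.67) in WT smoke against room air. That of Mzb1 in the mutants against room air (-1.22 to -0.21) does not reach 0 either. None of these changes passed.

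The slides on which the arrays lay gave different values. On slide 1 the median of the 7 B cell genes was 0.32 for WT smoke against room air, on slide 2 it was 0.47 and on slide 3 -0.06. For the mutants against WT smoke the 3 medians were -0.58, -0.43 and 0.10. Against room air those of the mutants were -0.14, 0.05 and 0.04. Slide 3 held room-air replicate 3, WT smoke replicate 3 and mutant replicates 3 and 4, which are the arrays singled out above. For them slide and mouse cannot be told apart. Each slide held 1 or 2 arrays of a group, so the differences between slides are not replicated. With the slide as a block 0 of the 9 genes passed in any comparison.

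The spread of these genes within groups was larger than that of most genes. The within-group SD ran from 0.24 (Cd22) to 0.71 (Jchain), against a median of 0.12 over all genes, and placed the 9 genes between the 82.2nd and 98.9th percentile. Repeat spots gave the reading error on 1 array: the 10 spots of the Mzb1 probe had an SD of 0.032 to 0.075 within an array, against 0.36 between arrays of a group. Of the 7 B cell genes, 7 were lowest of their group on WT smoke replicate 3 and on mutant replicate 4, and 7 were highest of their group on mutant replicate 3. WT smoke replicate 2 was the highest of its group for 6. Over all 12 arrays mutant replicate 4 was the lowest for 5.

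The B cell genes varied together from array to array, apart from the group means. After each group's mean was subtracted, the 21 pairs among the 7 genes correlated over 12 arrays at r = 0.60 to 0.95, with a median of 0.79 and a median Spearman rho of 0.71. Without the 2 arrays farthest from the median, mutant replicates 3 and 4, the median was 0.65 and the range 0.35 to 0.93. Jchain and Mzb1 correlated with each other at r = 0.92, and at 0.77 without room-air replicate 3 and mutant replicate 3. The 14 pairs of a B cell gene and a plasma cell gene had a median of 0.49, which was 0.09 without mutant replicates 3 and 4. These are descriptions of arrays that share a labelling and scaling, with no test.

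**Figure D3:**
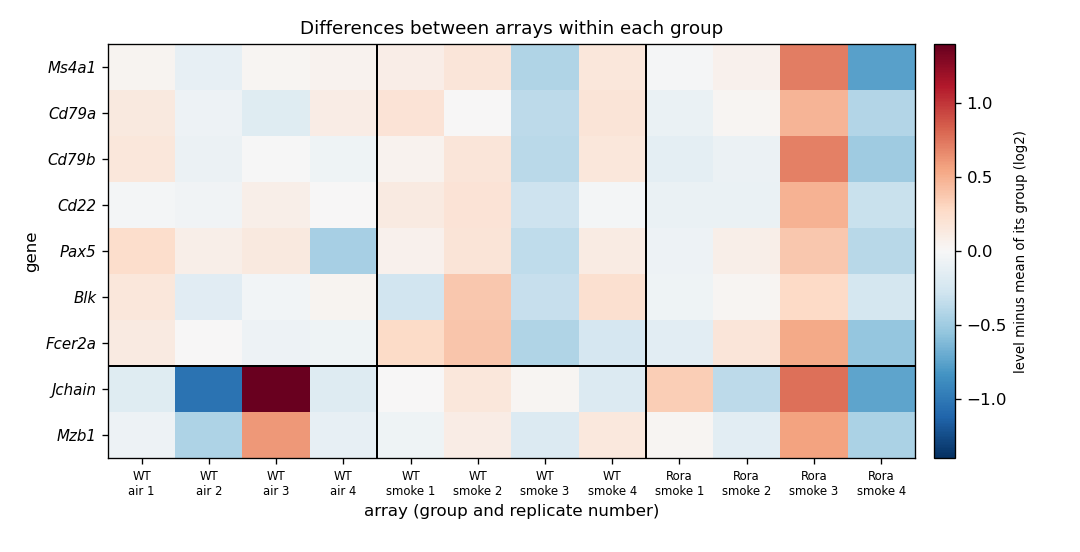
Level of each gene minus the mean of its group (log2), by array, with red above and blue below the group mean. Mutant replicate 3 is red and mutant replicate 4 blue for all 9 genes, WT smoke replicate 3 is blue for the 7 B cell genes, and room-air replicate 3 is red most of all for Jchain and Mzb1.

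Genes outside the 9 were ranked by their likeness to each pattern over the 12 group-centred arrays, among 15584 named genes. Nearest to the 7 B cell genes were Fcmr, the Fc receptor for IgM (r = 0.98), the mu heavy chain Ighm (0.98), the tetraspanin Cd37 (0.97), Mcoln2 (0.97) and the transcription factor Bcl11a (0.96). They were followed by H2-Oa, Bank1, Cxcr5 and Fcrl1 (0.96 to 0.95). Without mutant replicate 4, the correlations of these genes were 0.92 to 0.97. Nearest to the plasma cell genes were Ighv1-77 (r = 0.98), Prg2 (0.97), Ighv1-54 (0.97), a further Ighv1 segment (0.97), Igkv2-116 (0.93) and Pigu (0.93). The remaining 4 were Rab39, 0610030E20Rik, Igkv4-55 and Igkv4-57-1 (0.92 to 0.91). Immunoglobulin variable segments made up 6 of these 10.

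Immunoglobulin probes were then read through their descriptions in the files, a rule set after the probe descriptions were seen. Of 61 such probes 49 passed the filter: 9 of heavy chain constant regions, 17 heavy and 22 kappa variable segments and 1 lambda constant region. Variable segments share sequence, so a probe can read several of them and its identity is uncertain. In WT smoke against room air 44 of the 49 had a change below 0, with a median of -0.63, and 0 passed, against 4.07% of all probes; 7 had an unadjusted p under 0.05, against 17.6% of all probes. That median was -0.12 and 27 were below 0 without room-air replicate 3, whose kappa segments had a median of 1.76 log2 units above their mean over the 12 arrays. In the mutants against WT smoke 0 passed, against 5.83% of all probes, 2 had an unadjusted p under 0.05, against 21.3%, and the median was -0.14, which turned to 0.16 without mutant replicate 4 and to 0.55 with normexp. In the mutants against room air 5 variable segments fell (IGKV8-16 by 3.28, IGHV8-12 by 2.13, another IGKV1 segment by 1.25, IGKV1-35 by 1.24 and IGKV2-109 by 0.84), against 16.3% of all probes called. The count ran from 2 to 8 as single arrays were left out, and was 0 with normexp. It was 2 without room-air replicate 1 or 3, or mutant replicate 1, 2 or 4. It was also 2 without WT smoke replicate 1, 2 or 3, which are not in this comparison. Of the 49 probes 46 were below 0 in the mutants against room air, 29 without room-air replicate 3 and 19 with normexp.

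The constant region probes differed in which pattern they followed, and some followed neither or both. The Igh-6 probe A_52_P358360, which stands for Ighm, correlated at r = 0.98 with the B cell genes and 0.57 with the plasma cell genes. IgD (IGHD), the other receptor isotype of resting B cells, did so at 0.94 and 0.36. A different Igh-6 probe (A_51_P485421) had 0.67 and 0.94, the IGHM probe 0.65 and 0.91, and the pair of IGHG2C probes 0.30 and 0.20 with the B cell genes against 0.90 and 0.86 with the plasma cell genes. In room air the IGHG2C probes read -4.81, -5.04, 2.55 and -2.47 (A_51_P311235) and -6.23, -5.57, 0.48 and -3.90 (A_51_P351953). Replicate 3, also highest for Jchain and Mzb1, can dominate these correlations, which were not computed without it. A_51_P351953 was dim in both smoke groups, at -5.77 to -4.47 in WT and -6.06 to -3.48 in the mutants. The Igh-6 probe A_52_P162637 had 0.28 and 0.79. The lambda probe IGLC3 was near both patterns (0.81 and 0.89). The Igh-6 transcript probe (A_52_P156852) was near neither (-0.0032 and -0.12), and IGHE had negative values with both (-0.33 and -0.60). Both were dim probes, with levels of -6.11 to -4.95 and -6.01 to -5.02 over the arrays, so little can be read from their correlations. The first Igh-6 probe read 3.58, 3.34, 3.45 and 3.49 in room air, and the second 0.88, 0.54, 2.49 and 1.35, with only the second high on replicate 3. IGHD read 0.08, 0.37, -0.28 and 0.22 in WT smoke and -0.74, -0.51, 0.11 and -1.31 in the mutants, a difference of -0.71 that did not pass (limma adjusted p = 0.132 over all probes).

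**Figure D4:**
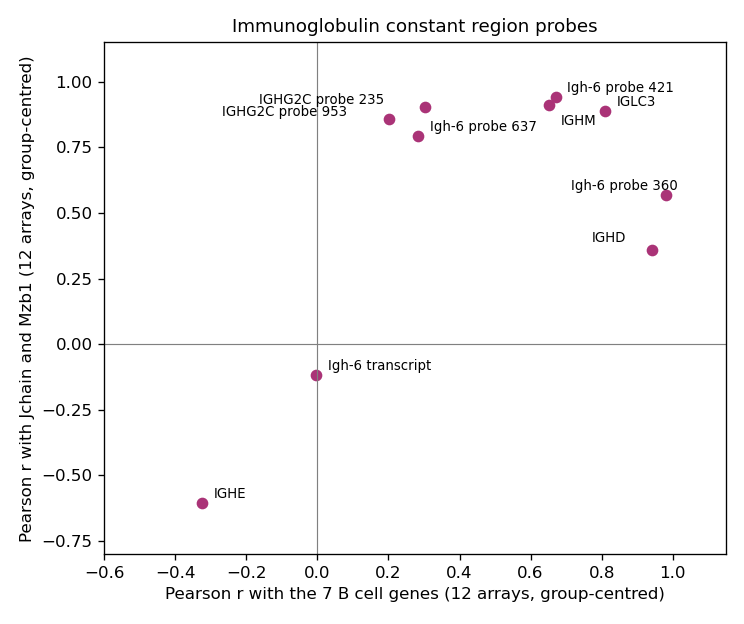
Each point is a heavy or lambda constant region probe, placed by its Pearson r with the B cell genes (x axis) and with Jchain and Mzb1 (y axis) over 12 group-centred arrays; repeated names carry the last digits of the probe. IGHD and 1 Igh-6 probe lie at the right (r = 0.94 and 0.98), the IGHG2C probes lie at the top (r = 0.90 and 0.86), and IGLC3 lies near both patterns. IGHE and the Igh-6 transcript probe, both dim, lie near neither. Both IGHG2C probes were far higher on room-air replicate 3 than on any other array.

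Other genes of the B lineage were read from lists chosen with earlier results of these data known. Of all genes, 2.31% rose and 2.55% fell with smoke in WT, 2.48% rose and 3.56% fell in the mutants against WT smoke, and 6.67% rose and 10% fell in the mutants against room air. Of the calls named from the B lineage lists, that of Tnfsf13b in the mutants against room air was the one that held with normexp (limma adjusted p = 0.0283). Normexp also cut the calls over all genes, from 963, 1198 and 3313 to 53, 28 and 181 in the 3 comparisons. Of the B cell antigen receptor signalling genes, 28 were tested, and 1 fell with smoke in WT: Fcgr2b, the inhibitory IgG receptor, by 0.34. Fcgr2b rose by 0.29 in the mutants against WT smoke (limma adjusted p = 0.0461). The 2 Fcgr2b calls held in 6 and 2 of the 12 fits that left out 1 array. In 4 of those 12 the array belonged to the third group, so only the adjusted p could move. In the mutants against room air the adaptor Blnk fell by 0.52 and Pik3ap1 rose by 0.35, which held in 8 and 3 of the 12 fits. The median change of the list was 0.00, 0.00 and -0.01 in the 3 comparisons. Of 16 B cell transcription factors, 0 passed with smoke and 1, Id3, an inhibitor of E2A proteins, fell by 0.26 in the mutants against WT smoke. Against room air Id3 fell by 0.30, Ebf1, the early B cell factor, by 0.58 and Mef2c by 0.51, and the list's median was -0.10. These 3 calls against room air held in all 12 fits, and that of Id3 between the smoke groups in 9 (not without mutant replicate 4 or WT smoke replicate 2 or 3). With normexp all of these calls were lost, with changes against room air of -0.36 for Id3, -0.38 for Mef2c and -0.10 for Ebf1 (limma adjusted p = 0.239, 0.170 and 0.940).

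Of 20 genes of B cell survival and homing, Tnfsf13b was the one that passed between the smoke groups. It encodes BAFF, the survival cytokine of B cells, which stromal and myeloid cells make. Its level was 0.64 ± 0.03 (SD, n = 4) in room air, 0.53 ± 0.06 in WT smoke and 0.16 ± 0.11 in the mutants. The mutants were thus at 0.770-fold of WT smoke (95% interval 0.701 to 0.845, limma adjusted p = 0.00626). The call held in each of the 12 fits without 1 array (highest adjusted p 0.0216 in limma) and was lost with normexp (adjusted p = 0.168 in limma). Against room air Tnfsf13b fell by 0.48, together with the chemokine Ccl19 by 0.42. The BAFF-family receptors Tnfrsf17 (BCMA, on plasma cells) and Tnfrsf13b (TACI) fell there by 0.78 and 0.41. With normexp the change of Tnfrsf17 was 0.098, above 0. Leaving out 1 array ended the call of Ccl19 for mutant replicates 1 and 4, that of Tnfrsf17 for room-air replicate 3 and mutant replicates 2 and 4, and that of Tnfrsf13b for 5 arrays. The list's median was 0.03 with smoke, -0.27 in the mutants against WT smoke and -0.20 in the mutants against room air.

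Of 19 genes of the plasma cell program and antibody secretion, 2 chaperone-system genes fell with smoke in WT: Sdf2l1 by 0.44 (limma adjusted p = 0.00321) and Derl3 by 0.65. The Sdf2l1 call held in all 12 fits without 1 array, and the Derl3 call in 4, and both were lost with normexp. Between the smoke groups 1 fell, Prdm1, which encodes the plasma cell factor BLIMP-1, by 0.30 (limma adjusted p = 0.0474). That call was lost in 11 of the 12 fits without 1 array. In the mutants against room air 6 fell, among them Pigr by 1.53, Derl3 by 0.87, Slamf7 by 0.83 and Sdf2l1 by 0.41. These 4 calls held in all 12 fits without 1 array and were lost with normexp, with changes of -1.12, -0.32, -0.093 and -0.43 (limma adjusted p = 0.0621, 0.940, 0.945 and 0.0678). Pigr is made by airway epithelium and not by plasma cells, and Sdf2l1 serves secretion in many cell types. The level of Derl3 was -1.99 ± 0.21 (SD, n = 4) in room air, -2.63 ± 0.07 in WT smoke and -2.86 ± 0.34 in the mutants. Of 6 genes of B cell precursors, 0 passed between the smoke groups. Against room air Vpreb1 fell by 0.36 with smoke and by 0.31 in the mutants, and Vpreb3 by 0.45 in the mutants. The Vpreb1 call with smoke held in 8 of the 12 fits without 1 array and was lost with normexp. The Vpreb1 call in the mutants held in all 12, and was lost with quantile scaling, median scaling and the authors' value table. The direction of Vpreb1 in the mutants turned with normexp (0.025), and that of Vpreb3 turned in the authors' value table (0.81). Vpreb3 had a value on only 3 of the 4 mutant arrays in the processing used here. The list medians of the plasma cell program were -0.09, -0.01 and -0.14.

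Markers of other cell types also differed between these arrays. All 8 alveolar macrophage markers tested had a change above 0 in the mutants against WT smoke and 5 rose, with Siglecf up by 0.82 and Mrc1 by 0.58. Their summed level, in units of the 75th percentile, was 102.1 to 114.7 in WT smoke and 139.2 to 205.7 in the mutants. Among the mutants it was lowest on replicate 3 (139.2), where the B cell genes were highest, and highest on replicate 4 (205.7), where they were lowest. WT smoke did not show this order in the sum. It was highest on replicate 2 (114.7), where 6 of the 7 B cell genes were the highest of the group. The sum stood at 107.6 on replicate 3, where all 7 were lowest. Bright markers weigh most in a sum, and the mean log2 level of the 8 markers gave other orders. Over replicates 1 to 4 that mean was 2.27, 2.20, 2.28 and 2.11 in WT smoke, highest on replicate 3. In the mutants it was 2.92, 2.73, 2.56 and 2.88, highest on replicate 1 and lowest on replicate 3. The 15 T cell markers summed to 9.06 on mutant replicate 3 and 6.12 on replicate 4, and to 6.65 on WT smoke replicate 3 against 8.11 to 8.34 on the rest of that group. Of these T cell markers 0 passed between the smoke groups and with smoke in WT, with medians of -0.15 and -0.23. In the mutants against room air their median was -0.38, and Trat1 fell by 1.13 and Lat by 0.50. Those calls held in 12 and 11 of the 12 fits without 1 array (that of Lat not without mutant replicate 4) and were lost with normexp, where Trat1 turned to 0.050. Of 9 natural killer cell markers 0 passed in any of the 3 comparisons, and of 7 neutrophil markers Mmp9 fell by 0.51 in the mutants against WT smoke, a direction that turned with normexp (0.088). Against room air Mmp9 fell by 0.49 and Cxcr2 by 0.79 in the mutants, with -0.033 and -0.24 under normexp. All 10 markers of lung epithelium and endothelium were among the genes tested, and 0 of them passed between the smoke groups. With smoke in WT 1 fell, Sftpa1, with means of 6.96 in WT smoke and 7.24 in room air. In the mutants against room air 1 rose, Ager, with means of 5.43 and 5.22. Those calls held in 6 and 4 of the 12 fits without 1 array and were lost with normexp. The part of these cell types in the values of the 9 genes was not tested.

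**Figure D5:**
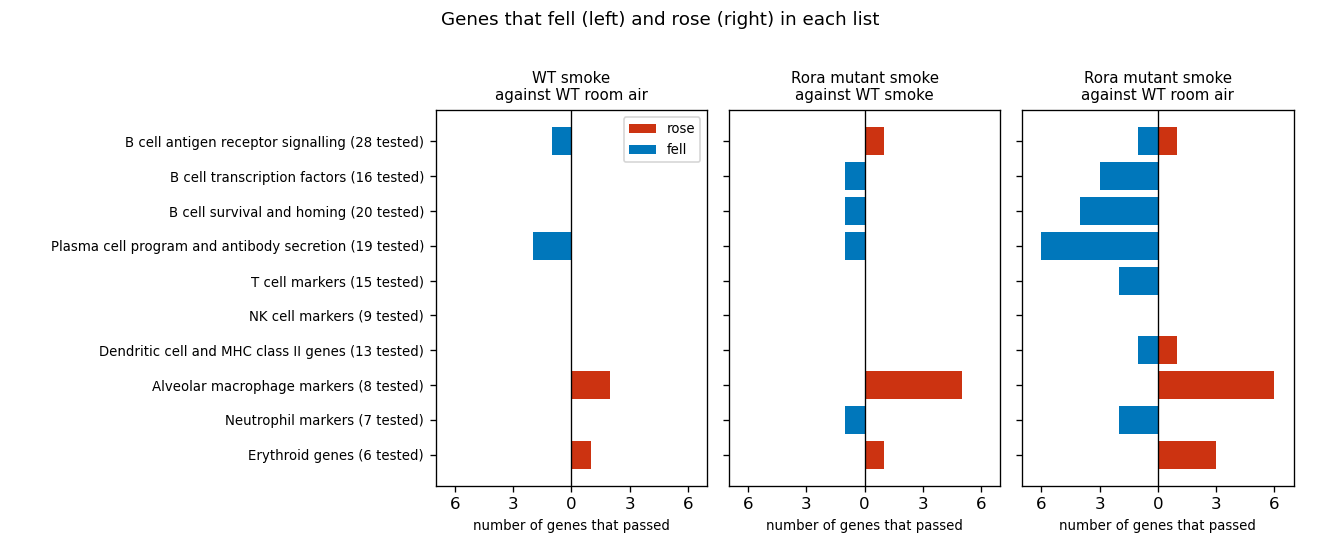
Number of genes per list that rose (red, right) or fell (blue, left) at an adjusted p under 0.05 in each comparison, with the number tested beside each name. In WT smoke against room air and in the mutants against WT smoke no B lineage list has more than 2 genes past the threshold; in the mutants against room air the plasma cell program has 6 and the survival and homing list 4, all of them lower.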

How the data were processed

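Per the file headers, the authors scanned each array with Agilent Feature Extraction 9.5.3.1 and deposited spot intensity values that were background-subtracted and detrended within the array, together with flags (other values) for spots above background. The deposited value table holds log2 values, and its normalization is not given in the sources used here. It correlated with the processed intensity at r of at least 0.9995 per array, and each column has a median of 6.79.

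Here log2 processed signal less the log2 75th percentile of the array (785.2 to 1313) was used. Repeat spots were averaged, and the filter asked for signal well above background on 4 or more of 12 arrays, with values on 3 or more arrays of each group. The kept probe with the highest mean stood for its gene. One limma 3.58.1 model (R 4.3.3) over 12 arrays gave the 3 comparisons, with Benjamini-Hochberg adjustment over all genes, and was tested on simulated data. The number of arrays limits the precision.

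Names came from the RefSeq table through accessions (24375 and 115 probes) or symbols (8625), and 8059 probes are named as in the file. All probes of the 9 genes are given. Of each other list, up to 4 genes with the smallest p among those that passed are named. The likeness ranks cover 10 genes per pattern. Some results under these rules, the erythroid genes by name among them, are not reported here. The members and lists were chosen with earlier results of these data known.

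Alternatives were normexp (offset 50), quantile and median scaling, the value table, other filters, the mean of a gene's probes, slide and replicate blocks, array weights, 2-group fits and leaving out each array. The same alternatives for list genes, and 2 kinds for immunoglobulin probes, were added after seeing the data.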

Additional observations from a re-analysis of the deposited data

Results flagged for a closer look

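Each of the 13 probes was checked in each group of 4 arrays for an array far from the rest, by its gap to the nearest array over the range of the group (Dixon's 95% critical value). Of 39 groups tested 3 stood out, where chance gives 1.95. All 3 belong to Ms4a1. On the probe that stands for the gene (A_52_P483336), WT smoke replicate 3 was low at 0.90, against 1.41 for the nearest array (gap 0.869 of the range). On the same probe, WT room air replicate 2 was low at 1.12, against 1.26 (gap 0.846). On the other Ms4a1 probe (A_51_P277683), WT room air replicate 4 was high at -0.79, against -0.92 (gap 0.857).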

How the results depend on the processing

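Of 648 values of the 9 genes under the alternatives, 628 kept their direction and side of the threshold, 15 turned direction and 5 newly passed. Not all of these values could turn. Leaving out an array of the third group, the replicate block, the 2-group fits and the other filters left the changes themselves as they were. Only the adjusted p could move there. With normexp 53, 28 and 181 genes passed in WT smoke against room air, in the mutants against WT smoke and in the mutants against room air. In the main fit 963, 1198 and 3313 of all genes passed. Without a filter on dim probes 564 and 688 passed in the first pair of comparisons, and with only the 2 groups compared 746 passed in the mutants against WT smoke. Where every one of the 12 arrays had to be well above background, 1 of the 9 genes passed in the mutants against room air, Mzb1 (limma adjusted p = 0.0456). As single arrays were left out, 554 to 961, 579 to 1143 and 2223 to 3226 genes passed, and of the 9 genes 0 to 0, 0 to 1 and 0 to 2. The newly passing values were those of Cd79b between the smoke groups and, in the mutants against room air, Ms4a1 without mutant replicate 3 (-0.68, limma adjusted p = 0.0429) and Mzb1 without mutant replicate 3 or room-air replicate 2 (-0.90 and -0.86).

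Directions turned with normexp for Cd79a (-0.24) and Blk (-0.28) in WT smoke against room air, for Cd79a (0.45), Pax5 (0.12) and Fcer2a (0.14) in the mutants against WT smoke, and for Cd79a (0.20) in the mutants against room air. With the mean of all probes Pax5 turned to -0.16 in the mutants against room air. Leaving out 1 array turned Blk with smoke (range -0.0068 to 0.23) and between the smoke groups (-0.033 to 0.20), and in the mutants against room air Fcer2a (-0.13 to 0.22), Cd22 (-0.076 to 0.19) and Cd79b (-0.31 to 0.086). Of the list genes, normexp turned Vpreb1 (0.025), Tnfrsf17 (0.098), Siglech (0.11) and Trat1 (0.050) in the mutants against room air and Mmp9 (0.088) between the smoke groups. The value table turned Vpreb3 (0.81), which had values on 3 mutant arrays in the main fit. Of 43 list calls 32 were lost with normexp in the same direction and 5 turned. Most calls over all genes were lost with normexp too, by the counts above. The cause was not tested.

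Replicate numbers did not pair the arrays (correlations of same-numbered arrays -0.097 to 0.22). With the replicate number as a block 655, 1097 and 2992 genes passed, 0 of the 9 genes passed in any comparison, and the smallest adjusted p (limma) were 0.146 for Pax5, 0.285 for Pax5 and 0.0554 for Mzb1.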
